A study of Homo sapiens with 6 samples.

Results

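Expression of 10 imprinted genes, *H19*, *MEG3*, *DLK1*, *PEG3*, *PEG10*, *MEST*, *CDKN1C*, *PLAGL1*, *NDN* and *SNRPN*, was examined in PANC-1 cells with and without a DKK1 enhancer. The genes were chosen by name, and all 10 were found among the 62703 gene identifiers of the deposited table, which gives each gene's estimated read count and its TPM (a level scaled for library total and transcript length) in every sample. PANC-1 is an established human cell line from a pancreatic ductal carcinoma, and DKK1-SE is a super-enhancer that regulates *DKK1*, a secreted Wnt antagonist. There were 2 groups of 3 biological replicates. The control group, DKK1-SE+/+, carried the labels WT and Control, and the other group, DKK1-SE-/-, carried the labels DKK1-SE Knockout and Gene Editing. In the DKK1-SE-/- cells the core component e1 of the super-enhancer had been deleted on both alleles with CRISPR/Cas9, after plasmid transfection, puromycin selection and limiting dilution. They were a single clone, so the 3 DKK1-SE-/- samples were samples of that clone, p-values measured the spread between these samples, and the deletion cannot be told apart from other differences between the clone and the control cells. The question asked here was whether imprinted genes differed in level in this clone.

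Summed over all genes, the estimated counts came to 21822314, 16475810 and 18803154 for DKK1-SE+/+ replicates 1 to 3, and to 17359835, 20098086 and 17804764 for those of DKK1-SE-/-. *DKK1* served as the check of the labels. Its level was 229, 246 and 199 TPM in the DKK1-SE+/+ samples and 66.8, 79.8 and 82.7 TPM in the DKK1-SE-/- samples, lower in all 3 samples of the clone. Its log2 fold change, here always DKK1-SE-/- minus DKK1-SE+/+, was -1.45 ± 0.112 (SE, n = 3 per group; adjusted p = 6.16e-06 by edgeR's quasi-likelihood test with Benjamini-Hochberg adjustment). The ductal markers *KRT7*, *KRT8*, *KRT18*, *KRT19* and *EPCAM* were all detected, with a summed level of 1846 to 1923 TPM in DKK1-SE+/+ and 2659 to 3146 TPM in DKK1-SE-/- samples, *KRT8* being the most abundant. Their changes were mixed. *KRT8* (0.86), *KRT18* (0.67) and *KRT19* (1.83) rose, *EPCAM* (-0.67, edgeR adjusted p = 0.0395) fell, and *KRT7* (0.47) did not pass the test. Markers of the other cell types of the pancreas were near 0. Acinar markers summed to at most 0.2 TPM with *CPA1* the most abundant, endocrine markers to at most 0.41 TPM with *IAPP*, and fibroblast markers to at most 1.22 TPM with *PDGFRB*. The fibroblast sum was 1.22, 0.69 and 0.82 TPM in DKK1-SE+/+ and 0.61, 0.43 and 0.03 TPM in DKK1-SE-/- samples. It was thus lower in the clone, but each of its genes had at most 10 counts and none was tested. Of the endothelial markers *KDR* alone was tested, and without it the list summed to at most 0.22 TPM. Of the leukocyte markers *CD68* alone was tested, and without it the list summed to at most 0.15 TPM, with *MS4A1* at 0 in all samples. Both lists differed between the groups, and each sum was mostly that of its 1 tested gene, *KDR* or *CD68*. The endothelial sum was 2.54, 2.57 and 2.12 TPM in DKK1-SE+/+ and 0.44, 0.55 and 0.58 TPM in DKK1-SE-/- samples, and the leukocyte sum 43.3, 40.9 and 46.5 against 68.0, 64.9 and 67.2 TPM. Whether this had a part in the results below was not tested, and in bulk samples fewer cells of a type and less RNA per cell cannot be told apart.

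Imprinted genes are expressed mainly from the maternal or the paternal allele. Most lie in clusters, in which DNA methylation set in the egg or the sperm marks an imprinting control region and is then maintained through cell division. Many of these genes act on fetal growth, and loss of imprinting or silencing of the active allele is common in tumors. Total expression, as measured here, does not separate the alleles, so the level of a gene does not tell how many alleles were active.

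Of the 10 genes, 7 passed the filter on low counts and were tested. *H19*, *SNRPN* and *MEST* were higher and *MEG3* was lower in DKK1-SE-/- cells, whereas *PEG10*, *CDKN1C* and *PLAGL1* did not pass the test. *PEG3* and *NDN* were at 0 counts in all 6 samples and *DLK1* had at most 6 counts. Differences were very common in the whole table, and these counts have to be read against that. Of all 15179 tested genes, 39.3% had an adjusted p under 0.05, 19.8% with higher and 19.5% with lower expression in DKK1-SE-/- cells. The limits of the study for differentially expressed genes, an unadjusted p under 0.05 and a fold change of at least 1.2, were read here as a log2 fold change of 1.2 or more in either direction. They were met by 8.66% of tested genes, 4.96% higher and 3.7% lower. Read as a linear fold change, the limit was met by 47.6% of all tested genes, 24.3% higher and 23.3% lower. All 4 changed genes of the 7 met the limits in either reading. The absolute log2 fold change had a median of 1.23 over the 7 genes and of 0.39 over all tested genes. The 10 genes were chosen with earlier results of these data known, so these values describe them and are no test of imprinted genes.

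**Figure D1:**
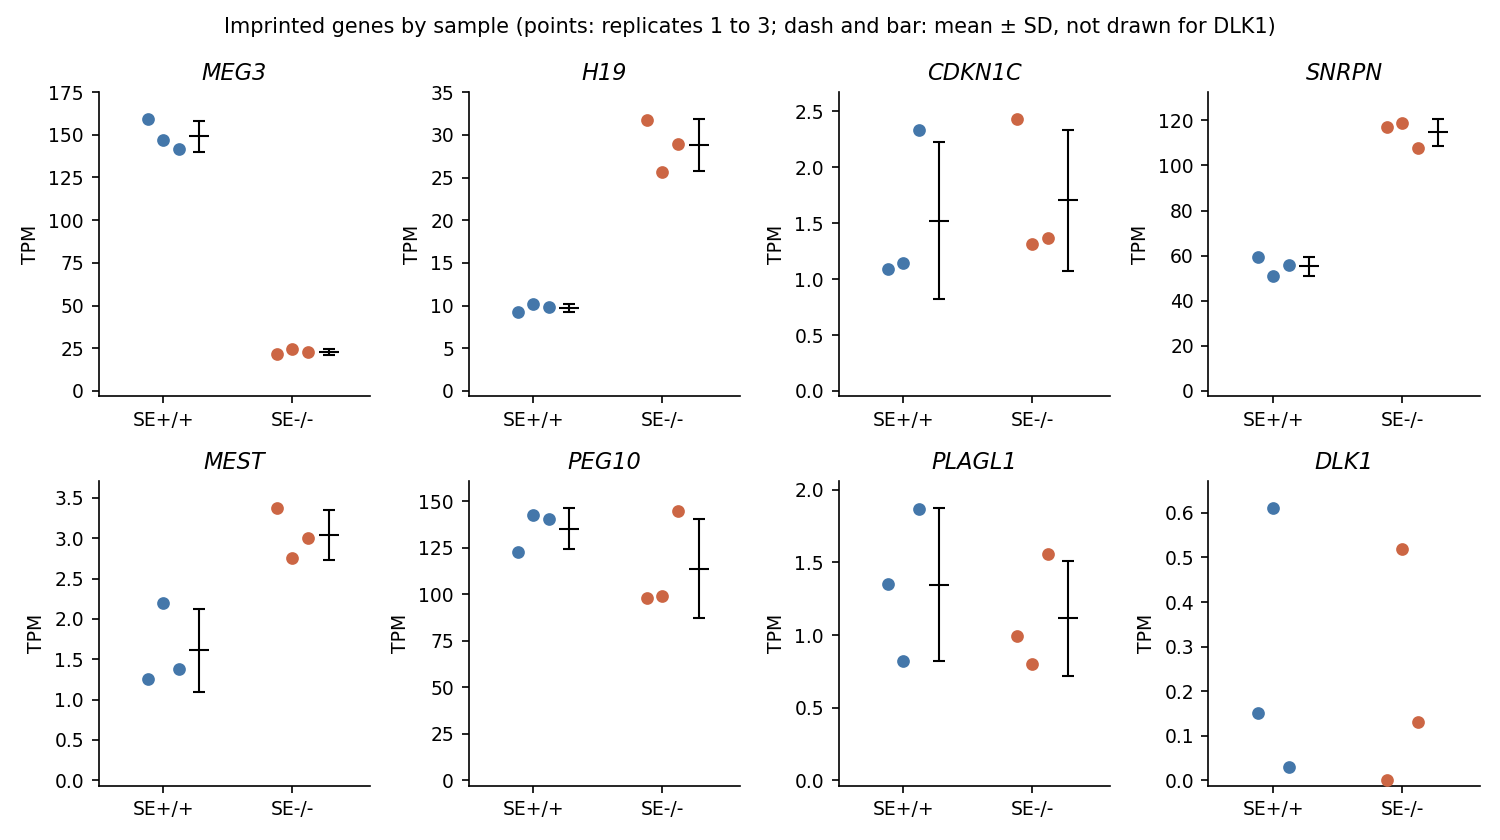
TPM (y axis, from 0) of 8 of the 10 imprinted genes in the 3 DKK1-SE+/+ (SE+/+, blue) and 3 DKK1-SE-/- (SE-/-, orange) samples, with the mean ± SD beside the points except for *DLK1*. The groups are separate for *MEG3*, *H19*, *SNRPN* and *MEST* and overlap for *CDKN1C*, *PEG10*, *PLAGL1* and *DLK1*; *PEG3* and *NDN*, at 0 in all samples, are not drawn.

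*MEG3*, *H19* and *CDKN1C* are expressed from the maternal allele. *MEG3* (ENSG00000214548, chr14:100779410-100861031, plus strand, hg38) is a long non-coding RNA known for growth-suppressive activity. It was present at 159, 147 and 141 TPM in the DKK1-SE+/+ samples and at 21.5, 24.6 and 22.6 TPM in the DKK1-SE-/- samples. All 3 samples of the clone were far below the lowest control sample, and each group was tight. *MEG3* fell by 2.43 ± 0.106 on the log2 scale (5.38-fold lower, edgeR adjusted p = 1.53e-07). By mean TPM it ranked 771 of 27164 detected genes in DKK1-SE+/+ and 4476 of 28426 in DKK1-SE-/- cells.

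*H19* (ENSG00000130600, chr11:1995166-2004552, minus strand) is a long non-coding RNA that shares its imprinting control region with the growth factor gene *IGF2*. It was present at 9.26, 10.2 and 9.89 TPM in the DKK1-SE+/+ samples and at 31.8, 25.6 and 28.9 TPM in the DKK1-SE-/- samples. The groups were separate, and the direction was opposite to that of *MEG3*, although both are maternally expressed. *H19* rose by 1.61 ± 0.149 on the log2 scale (3.06-fold, edgeR adjusted p = 2.2e-05). *CDKN1C*, which encodes a cyclin-dependent kinase inhibitor and lies on the same chromosome arm as *H19*, was low. Its level was 1.09, 1.14 and 2.33 TPM in DKK1-SE+/+ and 2.43, 1.31 and 1.37 TPM in DKK1-SE-/- samples. The groups overlapped, and its log2 fold change of 0.55 ± 0.375 did not pass the test (edgeR adjusted p = 0.27).

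The other 7 genes are expressed from the paternal allele. *SNRPN* (ENSG00000128739, on chromosome 15, plus strand) encodes a protein of the spliceosomal small ribonucleoproteins and lies in the Prader-Willi and Angelman syndrome region. It was present at 59.3, 51.0 and 55.7 TPM in the DKK1-SE+/+ samples and at 117, 119 and 108 TPM in the DKK1-SE-/- samples. Every sample of the clone was above every control sample. *SNRPN* rose by 1.23 ± 0.123 on the log2 scale (2.35-fold, edgeR adjusted p = 3.71e-05). This lies close to the limit of 1.2, and with GC-content offsets (1.11), in limma fits on TPM (1.04 and 1.05), with library size alone (1.16), or without DKK1-SE+/+ replicate 2 (1.17), DKK1-SE-/- replicate 1 (1.16) or DKK1-SE-/- replicate 2 (1.18) it was under that limit while the adjusted p stayed under 0.05.

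*MEST* (ENSG00000106484, on chromosome 7, plus strand) encodes an enzyme of the alpha/beta hydrolase fold family. Its expected count was 21, 27 and 20 in the DKK1-SE+/+ samples and 85, 79 and 70 in the DKK1-SE-/- samples. It was thus a gene of low abundance in both groups, at 1.25, 2.2 and 1.38 TPM in DKK1-SE+/+ and 3.37, 2.76 and 3.0 TPM in DKK1-SE-/- samples. *MEST* rose by 1.89 ± 0.281 on the log2 scale of counts (3.70-fold, edgeR adjusted p = 0.000493). On TPM the difference was smaller, 0.65 on the scale of log2(TPM + 1) and 0.91 on that of log2(TPM + 0.1) by limma, with adjusted p = 0.0302 and 0.0396 (range over all alternatives 8.38e-09 to 0.0396). TPM depends on the lengths of the transcripts to which reads were assigned, and the part of transcript choice in this gap was not tested.

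*PEG10*, a gene derived from a retrotransposon that encodes Gag-like proteins, was abundant in both groups, at 122, 142 and 140 TPM in DKK1-SE+/+ and at 97.8, 98.9 and 145 TPM in DKK1-SE-/- samples. The third sample of the clone lay above all control samples, and the log2 fold change of -0.07 ± 0.110 did not pass the test (edgeR adjusted p = 0.635). *PLAGL1*, a zinc finger transcription factor gene, was at 1.35, 0.82 and 1.87 TPM in DKK1-SE+/+ and 0.99, 0.80 and 1.56 TPM in DKK1-SE-/- samples. Its groups overlapped too, with a log2 fold change of -0.06 ± 0.295 (edgeR adjusted p = 0.897) whose sign differed between settings (-0.27 to 0.22). *DLK1*, which encodes a transmembrane protein related to the Notch ligands, had 6, 5 and 2 counts in DKK1-SE+/+ and 0, 6 and 2 counts in DKK1-SE-/- samples, too few for a difference to be detectable. *PEG3*, a zinc finger gene, and *NDN*, which encodes the MAGE family protein necdin, were not detected in either group.

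The order of levels was *MEG3*, *PEG10*, *SNRPN* and *H19* in DKK1-SE+/+ cells, with means of 149 ± 9.04, 135 ± 10.96, 55.3 ± 4.13 and 9.77 ± 0.462 TPM (SD, n = 3). The ranges of *MEG3* and *PEG10* overlapped there. In DKK1-SE-/- cells the order was *SNRPN*, *PEG10*, *H19* and *MEG3*, with means of 115 ± 5.90, 114 ± 26.7, 28.8 ± 3.06 and 22.9 ± 1.57 TPM. *SNRPN* and *PEG10* overlapped in that group, whereas all 3 values of *H19* were above those of *MEG3*. *MEST*, *CDKN1C* and *PLAGL1* had means from 1.117 to 3.04 TPM over both groups.

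Promoter windows are shown for the 4 genes that changed, to display the motifs and CpG pairs on which imprint proteins can act. RefSeq windows of 300 bases, from 250 bases before to 50 bases after a transcription start (GRCh38.p14), were matched for 6 of the 10 genes. Where a gene had several windows, the one with the most CpG pairs is given. The 5 motifs were searched on both strands, and capitals mark their matches: TGCCGC (the hexamer bound by the imprint protein ZFP57), TGACGTCA (the cAMP response element), TGANTCA (AP-1), GCCATNTT (YY1) and GGNGGCAG (a core of the CTCF motif, which contains the reverse complement of the ZFP57 hexamer where N is C). Of 35116 windows of this length, 16.7% held TGCCGC, 1.85% TGACGTCA, 7.71% TGANTCA, 6.58% GCCATNTT and 16.7% GGNGGCAG. The windows were those of *MEG3* (chr14:100825858-100826157, plus strand), *H19* (chr11:2001217-2001516, minus strand), *SNRPN* (chr15:24954737-24955036, plus strand) and *MEST* (chr7:130491835-130492134, plus strand).
MEG3: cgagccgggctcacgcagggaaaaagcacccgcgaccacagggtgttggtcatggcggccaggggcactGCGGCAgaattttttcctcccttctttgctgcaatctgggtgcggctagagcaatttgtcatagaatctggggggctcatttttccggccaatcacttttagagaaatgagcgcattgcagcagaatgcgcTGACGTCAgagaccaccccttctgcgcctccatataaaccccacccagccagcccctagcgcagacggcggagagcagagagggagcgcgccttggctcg
H19: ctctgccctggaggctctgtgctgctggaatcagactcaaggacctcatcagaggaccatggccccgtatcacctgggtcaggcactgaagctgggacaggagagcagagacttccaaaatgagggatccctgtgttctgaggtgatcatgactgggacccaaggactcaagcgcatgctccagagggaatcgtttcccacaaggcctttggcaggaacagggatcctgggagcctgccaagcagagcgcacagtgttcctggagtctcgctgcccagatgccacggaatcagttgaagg
SNRPN: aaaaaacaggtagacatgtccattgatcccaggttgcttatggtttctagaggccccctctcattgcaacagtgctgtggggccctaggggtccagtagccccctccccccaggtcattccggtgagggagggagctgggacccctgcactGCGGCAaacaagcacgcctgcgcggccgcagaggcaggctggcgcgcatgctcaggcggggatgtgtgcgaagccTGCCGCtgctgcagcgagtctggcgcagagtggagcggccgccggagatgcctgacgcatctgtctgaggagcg
MEST: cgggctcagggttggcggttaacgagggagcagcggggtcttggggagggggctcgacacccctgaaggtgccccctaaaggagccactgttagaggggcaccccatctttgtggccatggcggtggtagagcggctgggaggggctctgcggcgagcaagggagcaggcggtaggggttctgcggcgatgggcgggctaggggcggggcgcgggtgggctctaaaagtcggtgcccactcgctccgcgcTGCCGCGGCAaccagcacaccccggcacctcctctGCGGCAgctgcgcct
The *MEG3* window held 1 copy of the ZFP57 hexamer and 1 cAMP response element, which begins 50 bases before the start. The *SNRPN* window held 2 hexamers and the *MEST* window 3, of which 2 overlap. None of the motifs was found in the *H19* window. The number of CpG pairs was 19 for *MEG3*, 18 for *SNRPN*, 25 for *MEST* and 6 for *H19*. As windows were chosen by this number where a gene had several, neither it nor the motif matches can be set against all windows. The other windows differed. Those of *SNRPN* held 7, 2 and 11 pairs, the first 2 with a CTCF core and no hexamer and the last with 1 hexamer and a YY1 core. Of the other 4 *MEST* windows, 2 held a CTCF core that overlaps a ZFP57 hexamer, 1 of them with an AP-1 element too. Another held 2 hexamers, and the last held none of the motifs. All 3 *MEG3* windows, which overlap, held the same matches. These matches describe the letters of the reference, and neither binding nor methylation was measured in the samples used here.

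Whether other imprinted genes differed was asked with 52 further genes in 3 lists, of which 51 were in the table and 34 were tested. Of these 34, 15 rose, 12 fell and 7 did not pass the test, so that 79.4% changed against 39.3% of all tested genes. The limits for differentially expressed genes were met by 7 higher and 4 lower genes, 32.4% against 8.66%. The median log2 fold change was 0.31, against 0.03 for all tested genes, and the median of its absolute value was 0.87 against 0.39. Changes thus went in both directions. A gene near 0 in one group passes the filter only through the group in which it is high, so that the share of changed genes among those tested is no estimate for the whole list. The lists were also chosen with earlier results of these data known, and some listed genes overlap and may share reads. The shares therefore describe these genes and are no test of imprinted genes.

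Among genes listed as paternally expressed, 11 of the 22 in the table were tested, and 7 rose, 2 fell and 2 did not pass (81.8% changed, against 39.3% of all tested genes). *IGF2*, the fetal growth factor, was at 12.6, 11.8 and 12.2 TPM in DKK1-SE+/+ and at 51.7, 50.5 and 61.4 TPM in DKK1-SE-/- samples. It rose by 2.30 ± 0.102 on the log2 scale (edgeR adjusted p = 1.55e-07), with no overlap between the groups. *SNURF*, which encodes a small protein in the first exons of the *SNRPN* transcripts, rose by 2.57 ± 0.266 (edgeR adjusted p = 4.77e-05). *DIO3*, the deiodinase that inactivates thyroid hormone, had 5, 3 and 6 counts in DKK1-SE+/+ and 13, 16 and 24 counts in DKK1-SE-/- samples and rose by 2.01 ± 0.464 (edgeR adjusted p = 0.00595). *DIO3* passed the filter only through the DKK1-SE-/- samples. *RTL1*, a retrotransposon-like gene of the *MEG3* cluster, fell by 1.87 ± 0.313 (edgeR adjusted p = 0.000977).

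Smaller changes in this list were those of *SNHG14* (1.03), the host transcript of small nucleolar RNAs, *L3MBTL1* (1.04), a chromatin reader gene, *MKRN3* (0.82), a ring finger gene, *SGCE* (0.73), the epsilon-sarcoglycan gene, and *ZDBF2* (-0.91), all log2 fold changes past the edgeR test. *KCNQ1OT1* (0.09) and *NAP1L5* (-0.33) did not pass. *FAM50B* was too low to be tested, with 1 count over the DKK1-SE+/+ and 29 over the DKK1-SE-/- samples, a ratio of 31.5 after scaling for library size (95% exact interval 5.22 to 1287, which covers counting error only).

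Among genes listed as maternally expressed, 12 of 14 were tested, and 6 rose, 4 fell and 2 did not pass (83.3% changed, against 39.3%). Of those that rose, *ATP10A*, *KLF14* and *KCNQ1* passed the filter only through the DKK1-SE-/- samples. Their rise was nearly fixed by the filter, so this share is no measure of the list. *MEG8* and *MEG9*, long non-coding RNAs downstream of *MEG3*, both fell. *MEG8* was at 23.2, 21.2 and 18.9 TPM in DKK1-SE+/+ and 3.0, 2.91 and 5.05 TPM in DKK1-SE-/- samples, a fall by 2.44 ± 0.187 on the log2 scale (edgeR adjusted p = 5.62e-06). *MEG9* fell by 1.58 ± 0.271 (edgeR adjusted p = 0.00112). *CPA4*, a carboxypeptidase gene near *MEST*, was at 1.97, 1.86 and 2.92 TPM in DKK1-SE+/+ and 13.9, 7.99 and 20.8 TPM in DKK1-SE-/- samples and rose by 2.34 ± 0.210 (edgeR adjusted p = 1.76e-05).

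In 3 further maternally expressed genes that rose, the DKK1-SE+/+ samples were at or near 0. *ATP10A*, a phospholipid-transporting ATPase gene, had 0 counts in each DKK1-SE+/+ sample and 27, 18 and 40 counts in the DKK1-SE-/- samples. It was at least 30.8-fold higher, taking 3 counts over the group as the floor (edgeR adjusted p = 0.000321). *KLF14*, a transcription factor gene near *MEST*, had 1 count over the DKK1-SE+/+ and 54 over the DKK1-SE-/- samples, a ratio of 58.7 (95% exact interval 10.1 to 2360; edgeR adjusted p = 0.000505). *KCNQ1*, a potassium channel gene, had 3, 3 and 0 counts against 10, 12 and 10 and rose by 2.46 ± 0.666 (edgeR adjusted p = 0.0135). *PHLDA2* (0.56), *OSBPL5* (0.67), *PPP1R9A* (-0.73) and *UBE3A* (-0.44) also passed the test, and *SLC22A18* (0.25) and *ZNF597* (-0.09) did not. The medians of the lists are the same with *ATP10A* and *KLF14* at these bounds, since both lie above them either way.

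Genes imprinted only in certain isoforms or tissues made up the third list. Of 15 genes 11 were tested, and 2 rose, 6 fell and 3 did not pass. This was 72.7% against 39.3% of all tested genes, but 9.09% against 8.66% by the limits for differentially expressed genes. *WT1*, a zinc finger transcription factor gene, was at 7.76, 8.55 and 7.95 TPM in DKK1-SE+/+ and 0.84, 1.90 and 1.66 TPM in DKK1-SE-/- samples. It fell by 2.90 ± 0.211 on the log2 scale (edgeR adjusted p = 4.25e-06) and was the sole gene of this list past the limit of 1.2. *WT1-AS*, which overlaps it on the opposite strand, fell alike (-2.88, edgeR adjusted p = 0.00197), and their reads cannot be told apart, since the strand setting of the counting is not given. *BLCAP* rose by 1.04 ± 0.107 (edgeR adjusted p = 4.88e-05) and *GNAS*, the gene of the stimulatory G protein alpha subunit, by 0.54. *INPP5F*, an inositol phosphatase gene, fell by 1.07 ± 0.134 (edgeR adjusted p = 0.000155), the p53 family gene *TP73* by 1.01, the receptor adaptor gene *GRB10* by 0.68, *RB1* by 0.51 and *IGF2R*, which encodes a receptor that clears IGF2, by 0.38.

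The smaller of these changes depended on the processing. With GC-content offsets *UBE3A* (-0.08), *RB1* (-0.08) and *PHLDA2* (0.22) no longer passed the test (edgeR adjusted p = 0.382, 0.412 and 0.107). Over all alternatives the adjusted p ran from 0.000942 to 0.495 for *UBE3A*, from 0.00149 to 0.52 for *RB1* and from 9.36e-05 to 0.172 for *PHLDA2*. *MKRN3*, *OSBPL5*, *PHLDA2*, *UBE3A*, *IGF2R* and *RB1* each lost the call when 1 or more of the 6 samples was left out in turn. *L3MBTL1*, *MKRN3*, *PHLDA2*, *UBE3A* and *RB1* lost it in both limma fits on TPM, and *PPP1R9A* lost it on log2(TPM + 0.1) alone. On the scale of log2(TPM + 1), which compresses low levels, differences were smaller but still passed for *RTL1* (-0.54), *DIO3* (0.51), *KCNQ1* (0.49) and *WT1* (-1.91). The same held for *ATP10A* (0.57) and *MEG9* (-1.04), and the smallest log2 difference of *KLF14* over all alternatives was 0.44. With GC-content offsets *ZDBF2* (-0.47), *PPP1R9A* (-0.42) and *OSBPL5* (0.32) passed with smaller changes. With these offsets and the replicate block together, *ZDBF2* (edgeR adjusted p = 0.0515) and *OSBPL5* (edgeR adjusted p = 0.058) lost the call, and *IGF2R* lost it with the replicate block alone (edgeR adjusted p = 0.0589).

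**Figure D2:**
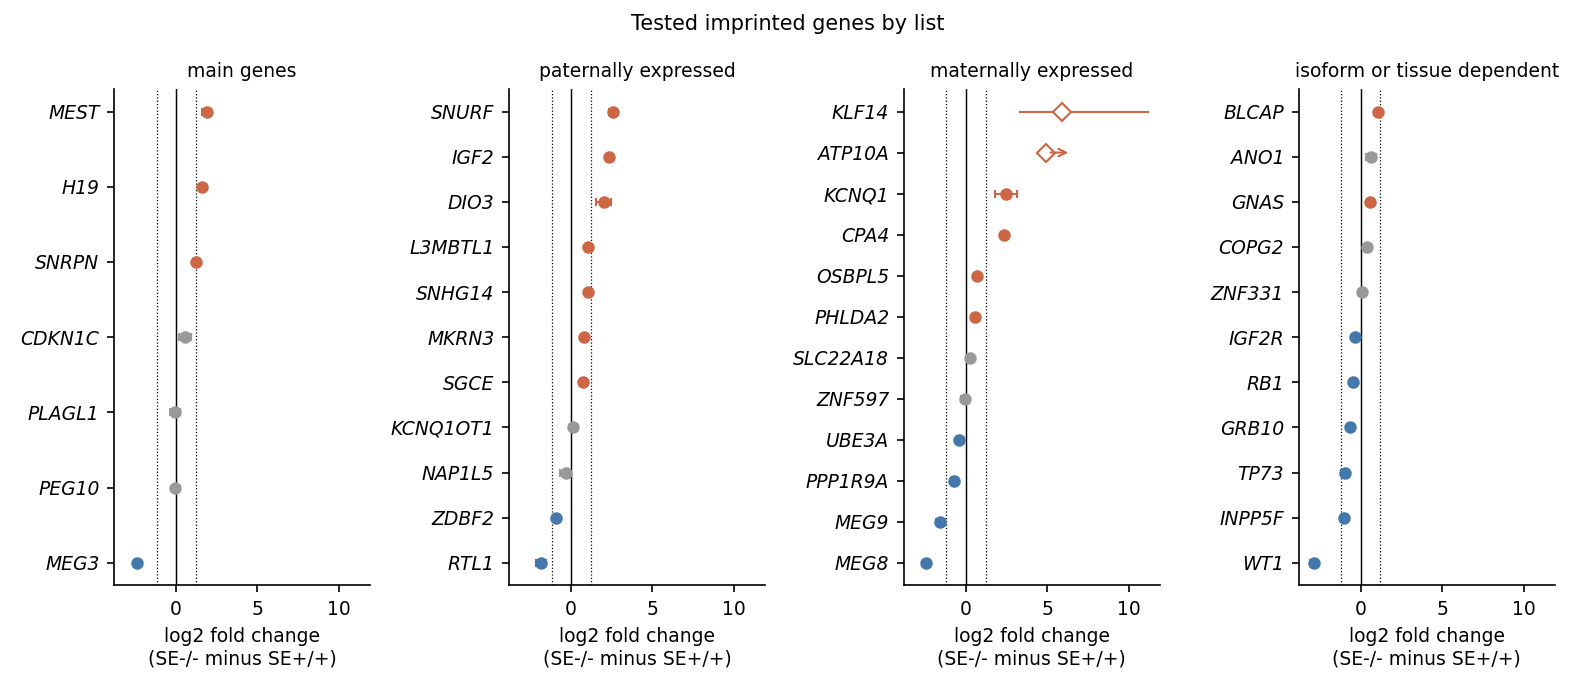
Log2 fold change (x axis, DKK1-SE-/- minus DKK1-SE+/+; bars, SE) of the 41 tested imprinted genes, in 4 lists, with orange for higher, blue for lower and grey for genes that did not pass an adjusted p under 0.05, and dotted lines at -1.2 and 1.2. Open diamonds give a bound for *ATP10A* (arrow) and a ratio with its 95% counting interval for *KLF14*; each list holds genes that changed in both directions.

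Genes of the same cluster were then compared. In the cluster of *MEG3* on chromosome 14, *MEG3*, *MEG8*, *MEG9* and *RTL1* fell, and so did the microRNA host gene *MIR493HG* (-1.95, edgeR adjusted p = 0.00114), which was not in the lists. The first 3 are maternally and *RTL1* is paternally expressed. At the far end of the cluster, *DIO3* and its opposite-strand transcript *DIO3OS* (2.08, edgeR adjusted p = 0.00211) rose. The *RTL1* gene lies on the strand opposite to *MEG8*, and whether strand was used in counting is not given in the sources used here, so that reads of *RTL1* and of *MEG8* cannot be told apart, and likewise those of *DIO3* and *DIO3OS*. *MIR493HG* overlaps *MEG3* and *MEG8* on the same strand. Outside these genes, of the 10 tested neighbours of *MEG3* within 1 Mb, counting *MIR493HG* and *DIO3OS*, 5 rose and 3 fell (80%, against 39.3% of all tested genes), with log2 fold changes from -1.95 to 2.08.

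In the cluster of *H19* on chromosome 11, *H19* and *IGF2* rose together, although they are expressed from opposite parental alleles. Farther from *H19* on the same chromosome arm, *KCNQ1*, *PHLDA2* and *OSBPL5* rose, and *CDKN1C*, *SLC22A18* and *KCNQ1OT1* did not pass the test. Of these, *OSBPL5* lay more than 1 Mb from *H19*. Of the 19 tested neighbours of *H19* within 1 Mb, 8 rose and 0 fell, 42.1% against 39.3% of all tested genes. The neighbours past the limits were the mucin gene *MUC5B* (2.90, edgeR adjusted p = 0.000134) and *IGF2-AS* (2.34, edgeR adjusted p = 0.0186), which overlaps *IGF2* on the opposite strand. Its mean was 3.0 counts in DKK1-SE+/+ and 14.7 in DKK1-SE-/-, and reads of the 2 genes cannot be told apart, nor those of *KCNQ1* and *KCNQ1OT1*, which overlap in the same way. Around *CDKN1C*, 6 of 15 tested neighbours rose and 1 fell (46.7%, against 39.3%), some of them neighbours of *H19* too. Among them *CARS1-AS1* (1.27, edgeR adjusted p = 0.0306) also met the limits, on few counts (25, 9 and 7 in DKK1-SE+/+ and 27, 31 and 31 in DKK1-SE-/- samples).

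In the cluster of *SNRPN* on chromosome 15, the paternally expressed *SNRPN*, *SNURF*, *SNHG14* and *MKRN3* rose, whereas *NDN* was at 0 and *MAGEL2* and *NPAP1* had at most 1.02 counts in a sample. The genes *SNRPN*, *SNURF* and *SNHG14* overlap on 1 strand, and their reads could be shared between them by the counting. Of the genes there that were listed as maternally expressed, *UBE3A*, the ubiquitin ligase gene of Angelman syndrome, was lower (-0.44, not past the test with GC-content offsets), and *ATP10A* was higher. Whether either gene was imprinted in these cells was not measured. *SNHG14* overlaps *UBE3A* on the opposite strand, so that their reads cannot be told apart, and a relation between their changes was not tested. *ENSG00000261069* (1.28, edgeR adjusted p = 0.0193), which overlaps *SNHG14* on the same strand, was the 1 neighbour of 3 that rose (33.3%, against 39.3%), and 3 of the 7 tested neighbours of *NDN* fell (42.9%), none past the limit of 1.2.

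Around *MEST* on chromosome 7, *MEST*, *CPA4* and *KLF14* rose, and *COPG2* (0.37), which overlaps *MEST* on the opposite strand, did not pass (edgeR adjusted p = 0.0597) but passed with GC-content offsets (0.52, edgeR adjusted p = 0.00306) and without DKK1-SE+/+ replicate 1 (edgeR adjusted p = 0.0475). Of 16 other tested genes within 1 Mb, 9 rose and 0 fell, 56.2% against 39.3% of all tested genes. The 3 with the smallest p past the limits were *PODXL*, the podocalyxin gene (1.57, edgeR adjusted p = 3.24e-06), the centrosomal gene *CEP41* (2.17, edgeR adjusted p = 6.44e-05) and *ENSG00000271204* (1.82, edgeR adjusted p = 0.0108).

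**Figure D3:**
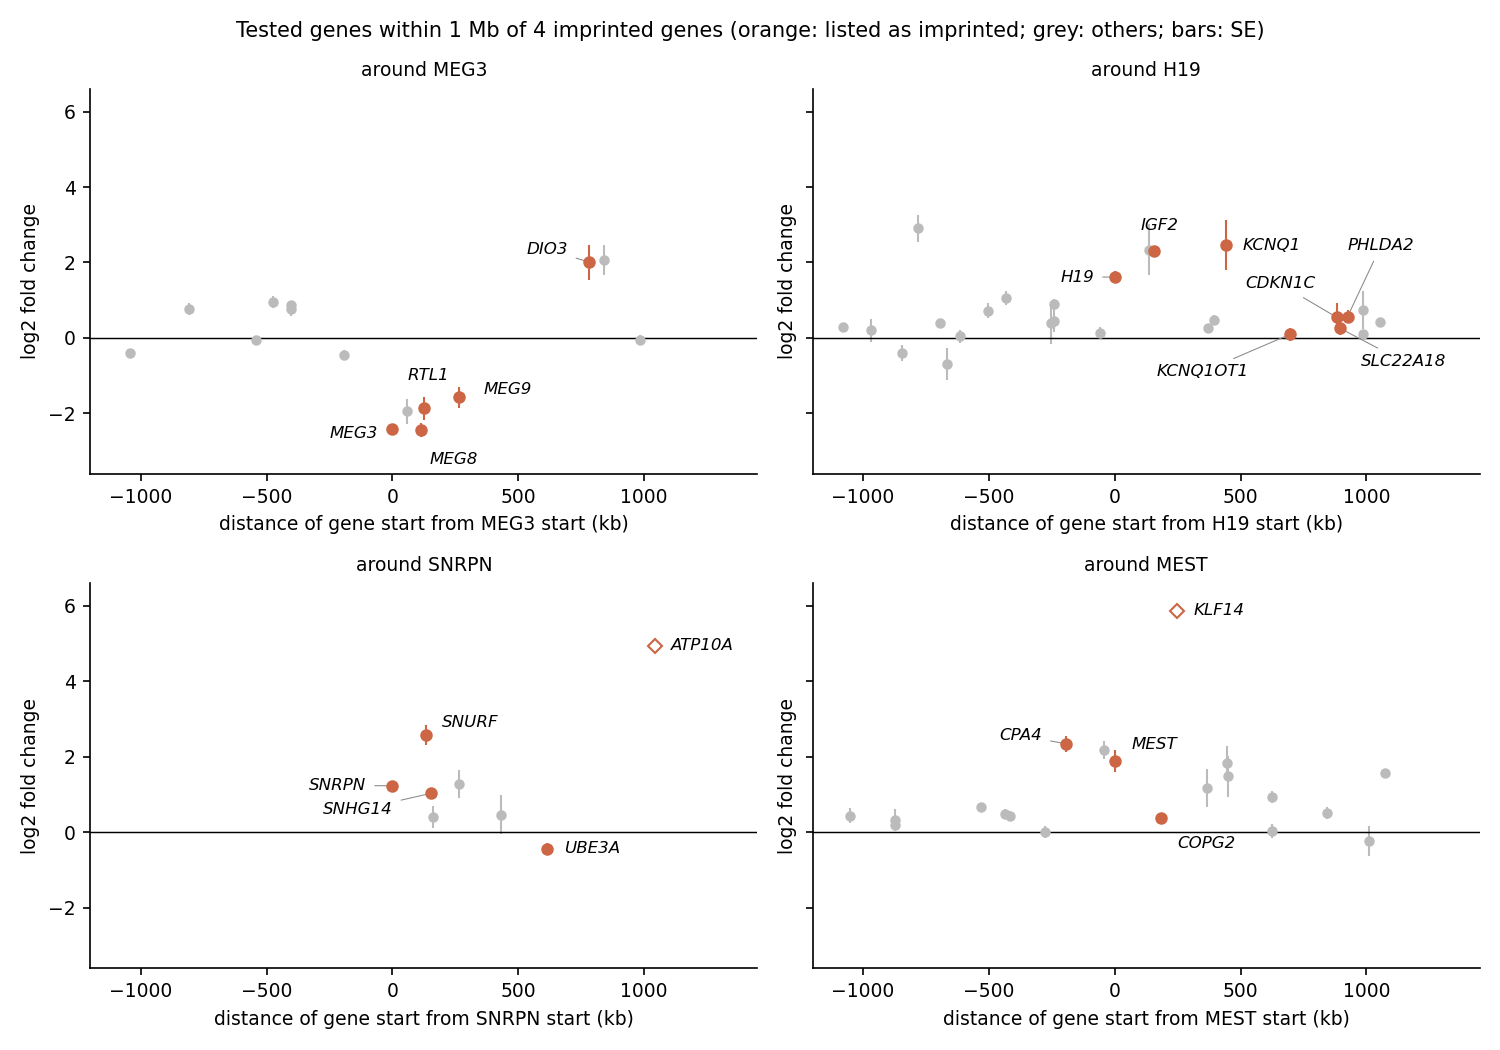
Log2 fold change (y axis; bars, SE) of the tested genes within 1 Mb of *MEG3*, *H19*, *SNRPN* and *MEST* against the distance of each gene's start from the start of that gene (x axis, kb), with listed imprinted genes in orange and other genes in grey. Open diamonds are the bound of *ATP10A* and the count ratio of *KLF14*; *MEG3*, *MEG8*, *MEG9* and *RTL1* lie below 0 while *DIO3* lies above it, and *H19*, *IGF2*, *SNRPN*, *MEST* and *CPA4* lie above 0.

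Neighbours of the other genes moved as well. Around *PEG10*, which did not pass the test itself, *SGCE* rose and *PPP1R9A* fell, and of 8 other tested genes 0 rose and 5 fell (62.5%, against 39.3% of all tested genes). *PON3*, a paraoxonase gene, went from a mean of 9.65 to 0.177 TPM (-6.19, edgeR adjusted p = 6.04e-07), and *ASB4* (-1.36) and the kinase gene *PDK4* (-2.49) fell past the limits as well (edgeR adjusted p = 8.69e-05 and 0.000374). Around *PLAGL1*, 1 of 11 genes rose and 6 fell (63.6%), with *UTRN* (-1.32) and *ADAT2* (-1.23) past the limits. Around *PEG3*, 5 of 40 rose and 1 fell (15.0%), *ZNF583* (1.77) being the one past the limits. Over all members together, 122 neighbours were tested, each counted once. Of these, 32 rose and 19 fell, 41.8% against 39.3% of all tested genes, and 17 (13.9%) met the limits for differentially expressed genes against 8.66%. Their median absolute log2 fold change was 0.42, less than the 0.87 of the listed imprinted genes and near the 0.39 of all tested genes. The neighbours include transcripts that overlap listed imprinted genes, such as *MIR493HG*, *DIO3OS*, *IGF2-AS* and *ENSG00000261069*, and the lists were chosen with earlier results known. They are thus no clean set of non-imprinted genes, and the difference between these medians was not tested.

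Proteins that set, keep or erase imprints were examined through 18 genes, here called imprint regulators, of which 14 were tested. They include the methylcytosine dioxygenases *TET1*, *TET2* and *TET3*, which act to remove methylation, so the counts join genes of opposite roles. Of these, 2 rose, 4 fell and 8 did not pass, 42.9% changed against 39.3% of all tested genes, and the median log2 fold change was -0.09. By edgeR and by DESeq2 0 of them met the limits for differentially expressed genes, and 2 higher and 5 lower genes had an unadjusted edgeR p under 0.05. *SMCHD1*, which encodes a chromatin protein that silences imprinted clusters and the inactive X chromosome, was at 31.4, 26.3 and 28.2 TPM in DKK1-SE+/+ and 7.31, 9.95 and 17.4 TPM in DKK1-SE-/- samples. All samples of the clone were below the controls, but they were spread widely. It fell by 1.08 ± 0.219 on the log2 scale (edgeR adjusted p = 0.00299). Of the dioxygenase genes, *TET3* (-0.99 ± 0.117, edgeR adjusted p = 0.000116) and *TET2* (-0.62 ± 0.194, edgeR adjusted p = 0.026) fell. With GC-content offsets the changes of *SMCHD1* (-0.62) and *TET2* (-0.36) were smaller. *TET2* lost the call in both limma fits on TPM, with these offsets and the replicate block together, and without DKK1-SE+/+ replicate 1 or 2 or DKK1-SE-/- replicate 1 or 2 (adjusted p from 0.0545 to 0.129).

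*ZNF445*, which encodes a zinc finger protein that protects imprints, was at 7.11, 8.02 and 7.60 TPM in DKK1-SE+/+ and 3.85, 3.75 and 5.43 TPM in DKK1-SE-/- samples and fell by 0.60 ± 0.138 (edgeR adjusted p = 0.00608). Its partner in that role, *ZFP57*, had at most 2 counts in any sample. *DNMT3B*, a de novo DNA methyltransferase gene, rose by 0.86 ± 0.200 (edgeR adjusted p = 0.00612), and the histone methyltransferase gene *EHMT2* by 0.47 ± 0.149 (edgeR adjusted p = 0.0282). *EHMT2* lost the call with GC-content offsets (0.20), with the replicate block, in limma fits on TPM, and without DKK1-SE+/+ replicate 1 or 2 or DKK1-SE-/- replicate 1, and *DNMT3B* lost it in the limma fits. The maintenance methyltransferase gene *DNMT1* (-0.12) and its cofactor *UHRF1* (-0.23) did not pass the test (edgeR adjusted p = 0.377 and 0.093) but passed with GC-content offsets (-0.32 and -0.45, edgeR adjusted p = 0.0034 and 0.00375, within ranges over the alternatives of 0.0034 to 0.63 and 0.00301 to 0.277). *TRIM28* (0.12), *SETDB1* (0.12), *CTCF* (-0.05), *EZH2* (-0.03), *DNMT3A* (-0.07) and *TET1* (-0.25) did not pass the test.

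Genes with a pattern most like that of each changed member were sought by the Euclidean distance between library-scaled log2 counts (CPM), centred on the control mean, over the 6 samples. Nearest to *MEG3* were *RASEF* (0.131), *CYB5R2* (0.3002) and *KDR* (0.303). *KDR*, a receptor for vascular endothelial growth factor, went from a mean of 2.35 to 0.423 TPM. Nearest to *H19* were *CSF1* (0.127), *NOVA2* (0.154) and *LYNX1* (0.158), and nearest to *SNRPN* were *DDIT4* (0.149), *UPP1* (0.162) and *CRELD2* (0.178). The genes nearest to *MEST*, *PTCH1* (0.402), *MYO5B* (0.414) and *CREB3L1* (0.446), lay farther from it. None of these 12 genes was in the imprinted lists, so that profiles like those of the changed members were also found among other genes of this clone.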

How the data were processed

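Libraries of the 6 samples were prepared with a stranded mRNA kit and sequenced at Majorbio, and the data were analysed on its cloud platform. The build is hg38 according to the submitters' processing notes, and the aligner, the counting program, its strand setting and the annotation are not given in the sources used here. The authors deposited expected counts per gene and sample, which are not normalized and of which 32.3% of those above 0 were not whole. The deposited TPM values were scaled by the authors for library total and transcript length. The deposited table also holds a fold ratio, a log2 fold change and a p-value from the authors' own comparison, and none of these was used.

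Expected counts were rounded and tested with edgeR 4.0.16 in R 4.3.3, using filterByExpr by group (minimum count 10), TMM and the quasi-likelihood F test, on all 15179 genes that passed, with Benjamini-Hochberg adjustment. The SE is that of the log2 fold change. TMM factors ran from 0.939 to 1.04. The correlation of log2(TPM + 1) between samples was 0.983 to 0.990 within and 0.973 to 0.980 between groups. Positions were taken from GENCODE 44 by identifier, for 62625 of 62703 identifiers. Neighbours were tested genes of which any part lay within 1 Mb of the member. Alternatives were DESeq2 1.42.0, other normalizations and filters, limma-trend (limma 3.58.1) on log-transformed TPM, GC-content offsets, a block for the replicate number, the omission of each sample, other limits and other windows. The fits were tested on simulated data.

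The members and lists were chosen with earlier results of these data known, and no test of a list was made. Named were all members, *DKK1*, all differentially expressed genes of each list with the 3 of smallest p, up to 3 differentially expressed neighbours of each member, the 3 genes nearest in profile to each such member, and the most abundant marker of each cell type. Other genes were named after their values were seen. *IPW* was not matched by name in the table.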

Additional observations from a re-analysis of the deposited data

How the results depend on the processing

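*MEG3*, *H19*, *SNRPN* and *MEST* kept their direction and an adjusted p under 0.05 under every alternative run, with log2 fold changes from -2.70 to -2.41, 1.30 to 1.70, 1.04 to 1.31 and 0.65 to 2.14. Over 840 values of single genes, 779 kept their side of the threshold, 52 lost and 9 gained the call, and 0 reversed a call. Among the 779, the sign differed between settings for some genes that did not pass the test, such as *PLAGL1*.

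With limma on log2(TPM + 1), 512 of all tested genes met the limits for differentially expressed genes in either direction, in place of 1314, and 1 member met them as higher, in place of 3, as did 3 higher and 2 lower of the other imprinted genes. Of the imprint regulators (genes that set, keep or erase imprints), 0 rose, 3 fell and 1 was lower by those limits. With limma on log2(TPM + 0.1), which shifted the median of all genes to -0.11, 1235 of all tested genes met the limits in either direction, 1 member met them as higher, and 0 imprint regulators rose and 3 fell, of which 1 was lower by the limits. With GC-content offsets 1 imprint regulator rose and 6 fell, in place of 2 and 4, and 6210 of all tested genes were called, in place of 5972. With these offsets and the replicate block 1 rose and 5 fell, 1 of them past the limits. Leaving out a sample gave 1 to 2 that rose, 3 to 5 that fell and 0 to 1 lower by the limits. A limit of 1.2 on the linear fold change, met by 47.6% of all tested genes, gave 16 higher and 12 lower other imprinted genes (82.4%) and 2 higher and 4 lower imprint regulators (42.9%). Windows of 0.5 and 2 Mb gave 29 of 57 (50.9%) and 116 of 290 (40%) changed neighbours in place of 51 of 122 (41.8%), against 39.3% of all tested genes. Apart from the limits and windows, which change what is counted, the cause was not tested.

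Samples with the same replicate number did not deviate together (r = -0.12, -0.07 and -0.11), so the numbers name samples only. In a fit with the replicate block 1 imprint regulator rose, in place of 2, 4 fell as before, and 4981 of all tested genes were called, in place of 5972.

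Depth limited *DLK1*, *FAM50B* and other genes under about 10 counts, for which differences were not detectable or rest on few counts.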
